A study of Mus musculus with 4 samples.

Results

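Cadherins and protocadherins are calcium-dependent adhesion molecules of the cell surface, and their mRNA was compared between the mouse ovarian cancer cell lines ID8G and GO2. The members were all genes with a symbol of the form Cdh followed by a digit, or beginning with Pcdh, for which the array carried at least 1 probe with a matching RefSeq accession. This gave 70 genes with 103 probes, out of 22911 gene symbols on the array. They comprised 23 Cdh genes, 35 protocadherins of the Pcdha, Pcdhb and Pcdhg clusters, and 12 protocadherins outside the clusters. ID8G cells are ID8 mouse ovarian cancer cells that express GFP, and are the parental line. GO2 cells came from ID8G cells that were passed 2 times through omental tumors in C57BL/6 J mice and recovered by sorting for GFP after each passage. The paper gives DMEM with serum, insulin, transferrin and selenite as the medium of ID8 cells, and names no separate medium for GO2 cells. Neither line received a treatment. Each line was measured on 2 one-color Agilent arrays with Cy3-labeled cRNA. GO2 is a single selected line, so a difference between the lines cannot be told apart from a difference that arose in that 1 derivation. Whether the 2 arrays of a line held RNA of separate cultures is not given in the sources used here, so p-values measure the spread between arrays, which may be technical.

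Classical cadherins bind the same cadherin on a neighboring cell through their extracellular repeats, and hold the actin cytoskeleton through beta-catenin, p120-catenin and alpha-catenin. E-cadherin is typical of epithelial sheets and N-cadherin of mesenchymal and neural cells, whereas the ovarian surface epithelium and mesothelium are known for N-cadherin. Protocadherins lack the catenin-binding tail, and the clustered ones are best known from neurons, where each cell switches on its own combination of promoters with the help of CTCF and cohesin.

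Levels are given as the log2 intensity of a probe relative to the 75th percentile on its array. They compare the lines for 1 probe, and do not rank different probes or genes. Between 27502 and 28841 of 56605 probes were well above background on an array. No spot was saturated. Over the tested probes, arrays of the same line correlated at 0.997 and arrays of different lines at 0.967 to 0.968. A probe was tested with limma when both arrays of ID8G or of GO2 cells had it well above background, and a gene was called when 1 of its probes had a Benjamini-Hochberg adjusted p below 0.05 and differed at least 2-fold. Of 13215 gene symbols tested, 851 were called higher in GO2 cells and 572 lower, and with scaling to spike-in transcripts 733 were called higher and 808 lower. With 2 arrays per line the smallest p of an exact two-sided permutation test is 0.333, and the adjusted p-values rest on a spread shared across probes.

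The ovarian identity of the cells was checked with markers. Wt1 is a transcription factor of the ovarian surface epithelium and mesothelium. It was at 5.98 and 6.22 on the ID8G arrays and at 5.99 and 6.01 on the GO2 arrays. Of 9 markers of these tissues 8 were tested, and Krt7 was not well above background. Krt19 was called lower (-1.65) and Upk3b higher (1.08) in GO2 cells. Krt8, Krt18 and Msln were 0.55, 0.81 and 0.82 lower, under 2-fold. Lrrn4 differed by -0.04 and Upk1b by -0.01 at its brighter probe. The brightest genes of the list were Krt18, Krt19 and Krt8. The log2 of its summed level was 9.37 to 9.39 in ID8G cells and 8.57 to 8.59 in GO2 cells. The leukocyte markers Ptprc, Adgre1 and Lyz2 and the endothelial markers Tek, Kdr, Erg, Tie1, Cldn5 and Emcn were not well above background on any array. Other genes of these lists had a probe well above background in both lines. They were Itgam, Cd3e, Csf1r and Cd68 of the first and Esam and Pecam1 of the second. Robo4 was well above background in ID8G cells only. The probes of Itgam disagreed, since another lay between -3.93 and -3.32 and was well above background on 1 GO2 array only. The epithelial markers Epcam, Ocln and Cldn4 were not well above background on any array, although the keratins Krt8 and Krt18 were bright in both lines. Fibroblast markers moved with the line. Of 8 in the list 5 were tested. Col1a1, Col3a1, Pdgfra and Pdgfrb were called higher in GO2 cells, where 6.44% of all tested symbols were called higher. Pdgfrb was well above background in GO2 cells only, so it had to differ. The log2 of the summed level of the list was 6.10 to 6.15 in ID8G cells and 7.02 to 7.03 in GO2 cells. Fap, Lum and Thy1 were not well above background on any array, and Dcn was 0.63 lower on the log2 scale. The part of these genes in the cadherin differences was not tested.

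Most members were too weak to be measured in either line. A total of 41 genes had no probe well above background on any of the 4 arrays, 21 had a probe well above background on all 4, and 8 lay between. The 41 were 11 Cdh genes, 25 clustered and 5 non-clustered protocadherins. They included Cdh5, the cadherin of endothelial junctions, and the type I cadherins Cdh4 and Cdh15. The 67 probes dim on every array lay between -6.18 and -3.55, where values have no meaningful order. In all, 24 genes with 29 probes were tested, and the other 46 genes were not.

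Among the tested members, 7 of 24 genes were called higher in GO2 cells (Cdh3, Pcdhb6, Pcdhb20, Pcdhb21, Pcdhb22, Pcdh9 and Pcdh19) and 2 were called lower (Cdh22 and Pcdh17), where 6.44% and 4.33% of all tested symbols were called. Pcdhb6 and Pcdhb20 passed the filter only through GO2 cells and Pcdh17 only through ID8G cells, so these had to differ and their counts are a description. The called probes ran from -3.64 to 4.26 on the log2 scale. A further 9 probes of 8 genes had an adjusted p below 0.05 in limma without reaching 2-fold, with differences from -0.36 to 0.91. Of all 13215 symbols tested, 3007 were higher and 2970 lower at that adjusted p with no minimum fold, the called ones included. The replicate SD over the tested probes had a median of 0.07.

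**Figure D1:**
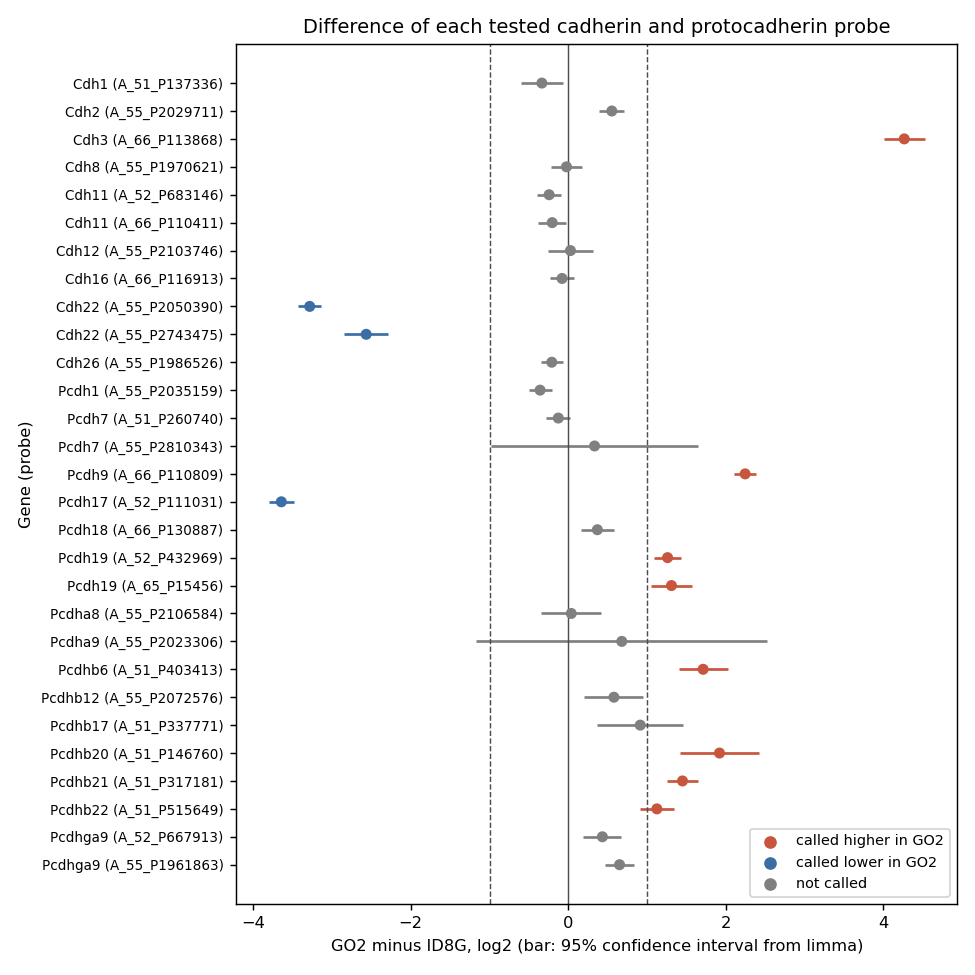
GO2 minus ID8G on the log2 scale for the 29 tested member probes, with the 95% confidence interval from limma as a bar (n = 2 arrays per line) and dashed lines at a 2-fold difference. The interval of Cdh3 lies farthest to the right and those of Cdh22 and Pcdh17 farthest to the left. The long bars belong to Pcdha9 and 1 probe of Pcdh7, where the 2 GO2 arrays differ. Pcdhb6, Pcdhb20 and Pcdh17 are drawn at their fitted values, which are no bounds.

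Cdh3 carried the largest increase among the members. It encodes P-cadherin, a classical type I cadherin of basal and stratified epithelia. The probe A_66_P113868 was at -2.79 and -2.90 on the ID8G arrays and at 1.32 and 1.52 on the GO2 arrays. Both ID8G arrays were low but well above background, both GO2 arrays were high, and the lines did not overlap. The difference was 4.26 ± 0.09 (SE) on the log2 scale, or 19.2-fold (adjusted p = 0.000222, limma).

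The gene next to Cdh3 on chromosome 8 is Cdh1, which encodes E-cadherin, the adhesion molecule of epithelial junctions. Cdh1 read -0.48 and -0.33 in ID8G cells and -0.83 and -0.65 in GO2 cells. The GO2 arrays lay below the ID8G arrays by less than a 2-fold step, and the difference of -0.34 (95% confidence interval -0.60 to -0.07) was not called (adjusted p = 0.0600, limma). That p depended on the processing. In limma it was 0.0285 with normexp, 0.0446 with median centering, 0.0437 with the filter on all 4 arrays and 0.0177 with an intensity trend. It was 0.0540 with quantile normalization, 0.0550 with the floor and 0.222 without a filter. With spike-in scaling the difference was -0.54 (adjusted p = 0.0042, limma), still under 2-fold. Of the 7 epithelial markers, Cldn3, a tight junction protein, was called lower in GO2 cells (a difference of -2.37). Krt18 and Krt8, the brightest of the list, were 0.81 and 0.55 lower, and Esrp1 was 0.18 higher with overlapping arrays. The log2 of the summed level of the list, which mainly follows these keratins, was 8.56 to 8.61 in ID8G cells and 7.85 in both GO2 arrays. The part of these markers in the Cdh1 values was not tested.

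A total of 8 members lie on chromosome 8, in the order Cdh8, Cdh11, Cdh5, Cdh16, Cdh3, Cdh1, Cdh13 and Cdh15. Cdh3 was the called gene among the 5 of them that were tested. Cdh8 differed by -0.02, Cdh16 by -0.08, and Cdh11 by -0.24 and -0.20 at its 2 probes.

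Cdh2, which encodes N-cadherin, was measured at 2.95 and 2.89 in ID8G cells and at 3.43 and 3.50 in GO2 cells. The GO2 arrays were the higher ones without overlap, by 0.55 ± 0.06 (SE) or 1.47-fold, below the 2-fold minimum (adjusted p = 0.00546, limma). With scaling to spike-in transcripts, which lowers every difference by about the same amount, Cdh2 was 0.35 higher.

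Among the type II cadherins, which are divergent relatives of the classical group, Cdh22 was the called gene. It encodes a cadherin first described in pituitary and brain. The brighter probe A_55_P2050390 was at 0.96 and 1.004 in ID8G cells and at -2.32 and -2.28 in GO2 cells. The second probe A_55_P2743475 was at -1.05 and -0.96 in ID8G cells and at -3.69 and -3.45 in GO2 cells, of which 1 array was well above background. Both probes were high on both ID8G arrays and low on both GO2 arrays, with no overlap. Cdh22 fell by 3.28 ± 0.05 (SE) on the log2 scale at the brighter probe, a 9.73-fold decrease (adjusted p = 0.000185, limma), and by 2.57 ± 0.10 at the second (adjusted p = 0.000518, limma).

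Cdh11, a cadherin of mesenchymal cells, was at 2.35 and 2.33 in ID8G cells and 2.13 and 2.07 in GO2 cells at its brighter probe. The GO2 arrays were lower by 0.24 without overlap, which was under 2-fold (adjusted p = 0.0341, limma). Cdh12 and Cdh8, both known from brain, differed by 0.03 and -0.02, with overlapping arrays in both cases. The sign of the Cdh12 difference turned under 5 alternatives, with normexp, median centering and spike-in scaling, and without the second ID8G or the first GO2 array. Cdh16, the kidney cadherin, differed by -0.08, and Cdh26 by -0.21 (adjusted p = 0.0434, limma). The median over the 9 tested Cdh genes was -0.08, with 3 above 0 and 6 below, beside -0.00042 over all symbols tested.

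**Figure D2:**
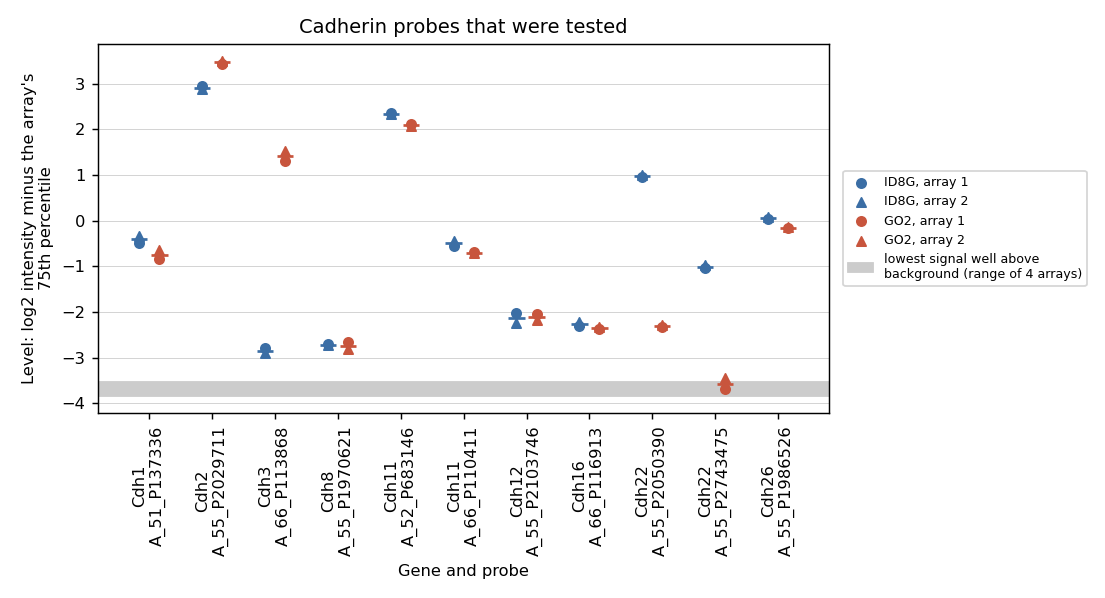
Level of each tested Cdh probe on the 4 arrays (log2 intensity relative to the 75th percentile), with circles for array 1 and triangles for array 2 of each line, short bars for the mean, and the grey band marking the lowest signal well above background. ID8G (blue) and GO2 (red) points separate widely for Cdh3 and for both Cdh22 probes, and lie close together for the others. Levels of different probes are not comparable.

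The remaining Cdh genes with any signal were not tested. Cdh6 was well above background on 1 ID8G array, at -3.48 and -3.51 in ID8G cells against -4.45 and -4.60 in GO2 cells. Cdh24 was well above background on 1 ID8G array only (-5.58 and -3.54), and Cdh13, which encodes the lipid-anchored T-cadherin, on 1 GO2 array only (-3.88 and -3.08, against -5.78 and -6.11 in ID8G cells).

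The clustered protocadherins were represented by 7 Pcdha, 22 Pcdhb and 6 Pcdhg genes. A total of 9 were tested. For Pcdhb6 and Pcdhb20 the filter fixed the direction. The other 7 were measured in both lines and had higher mean levels in GO2 cells, of which Pcdha8 (0.04 higher) turned to -0.17 with scaling to spike-ins. The median difference was 0.91, or 0.68 when Pcdhb6 and Pcdhb20 were set to their lower bounds. In limma 4 of the 9 were called higher and 0 lower, where 6.44% and 4.33% of all tested symbols were called. The 4 include Pcdhb6 and Pcdhb20, and the called genes measured in both lines were Pcdhb21 and Pcdhb22. No clustered probe was lower at an unadjusted p below 0.05 in limma. All 4 called genes belonged to the beta cluster, whose members are similar genes of a single coding exon. Whether a beta probe is specific to 1 of them was not tested. Of 6 neuronal markers, Map2 (well above background in GO2 cells only) and Tubb3 were called higher in GO2 cells, Snap25 differed by -0.20, and Rbfox3, Syt1 and Elavl3 were not well above background on any array. The log2 of their summed level, which mainly follows Snap25, ran from 3.88 to 3.98 in ID8G cells and from 3.93 to 4.04 in GO2 cells. The Snap25 values come from its brighter probe. Its other probe was not well above background on any array (-6.14 to -5.84), so the probes disagreed. The part of the neuronal markers in the protocadherin differences was not tested.

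Pcdhb21 and Pcdhb22, the last genes in the order of the beta cluster, were measured in both lines. Pcdhb21 was at -3.26 and -3.12 in ID8G cells and at -1.75 and -1.73 in GO2 cells. Pcdhb22 was at -3.15 and -3.25 in ID8G cells and at -2.00 and -2.15 in GO2 cells. In both genes the GO2 arrays were high and the ID8G arrays low, with no overlap. Pcdhb21 rose by 1.45 ± 0.07 (SE), or 2.73-fold (adjusted p = 0.000800, limma), and Pcdhb22 by 1.12 ± 0.08, or 2.18-fold (adjusted p = 0.00192, limma).

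Pcdhb20, their neighbor, was at -4.97 and -4.61 in ID8G cells and at -3.04 and -2.70 in GO2 cells. Pcdhb6, from the first part of the cluster, was at -4.95 and -4.76 in ID8G cells and at -3.03 and -3.25 in GO2 cells. Both genes stood well above background on the GO2 arrays and on no ID8G array. For such genes the fold is a lower bound, set against the mean of the lowest signals well above background on the arrays of the dim line. Pcdhb20 was at least 1.75-fold higher in GO2 cells (adjusted p = 0.00408, limma) and Pcdhb6 at least 1.45-fold higher (adjusted p = 0.00167, limma). Both bounds lie under 2-fold, so the calls rest on fitted values below background, and the filter bears on their p-values. With normexp background correction none of the 4 beta genes reached 2-fold, with differences of 0.60 for Pcdhb6, 0.63 for Pcdhb20, 0.98 for Pcdhb21 and 0.73 for Pcdhb22.

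Pcdhb17 and Pcdhb12 were measured in both lines without being called. Pcdhb17 was at -3.10 and -2.57 in ID8G cells and at -1.98 and -1.86 in GO2 cells, a difference of 0.91 (adjusted p = 0.0316, limma). It reached 1.18 and was called when the second ID8G array was left out. Pcdhb12 was 0.58 higher in GO2 cells (adjusted p = 0.0389, limma). The arrays of the lines did not overlap for either gene. The other 16 beta genes were not well above background on any array, between -6.13 and -3.55, and are listed without a fold.

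**Figure D3:**
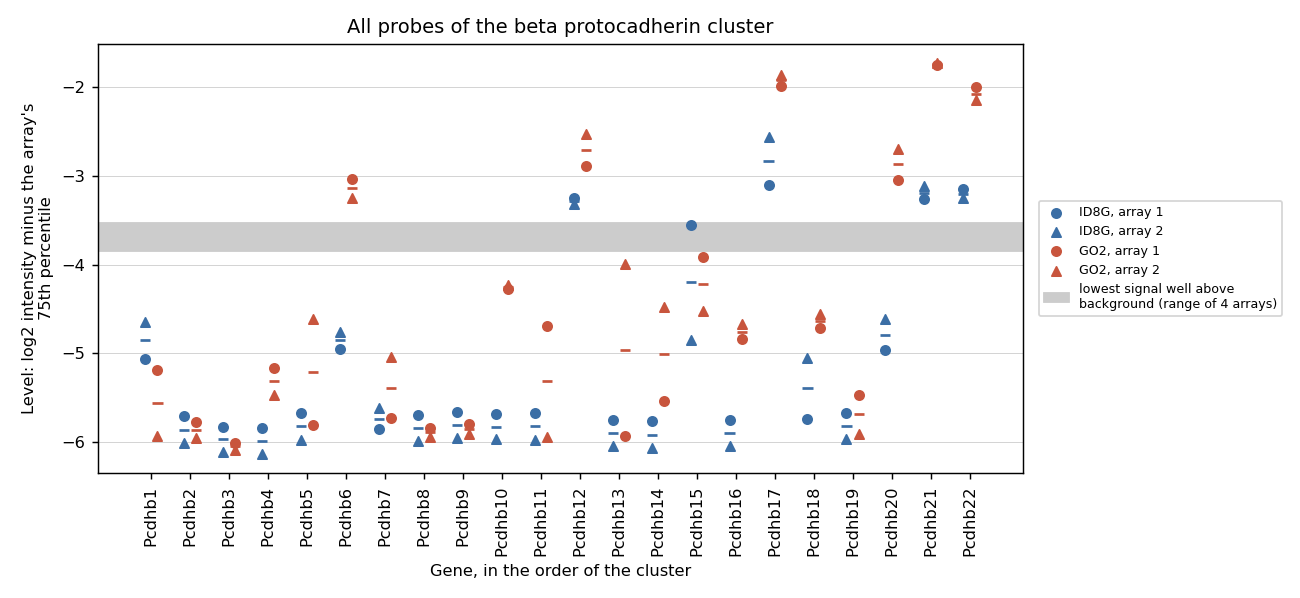
Level of the 22 Pcdhb genes on the 4 arrays, in cluster order, 1 probe per gene, with circles for array 1 and triangles for array 2 of ID8G (blue) and GO2 (red), short bars for the mean and the grey band marking the lowest signal well above background. In 6 genes the red points lie above the band and above the blue points, namely Pcdhb6, Pcdhb12, Pcdhb17, Pcdhb20, Pcdhb21 and Pcdhb22. The other 16 lie around or below the band.

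In the gamma cluster Pcdhga9 was the tested gene. Its probe A_55_P1961863 was at 2.83 and 2.90 in ID8G cells and at 3.57 and 3.46 in GO2 cells, a difference of 0.65 ± 0.07 (SE) (adjusted p = 0.00515, limma). The probe A_52_P667913 differed by 0.43 (adjusted p = 0.0272, limma). Both probes were higher on both GO2 arrays without overlap and under 2-fold. Gamma mRNAs share their last exons, as do alpha mRNAs, and the files do not say where in the transcript a probe lies, so either probe may report more than 1 member.

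The alpha cluster gave 2 tested genes. Pcdha8 differed by 0.04 with overlapping arrays. Pcdha9 was at -3.09 and -3.28 in ID8G cells and at -3.47 and -1.55 in GO2 cells. The second GO2 array stood apart from the other 3, and the difference of 0.68 had an interval from -1.17 to 2.53 (adjusted p = 0.472, limma). It was 1.64 and called without the first GO2 array and -0.28 without the second. Pcdha12 was well above background on 1 GO2 array and was not tested.

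The non-clustered protocadherins, many of them known for roles in the wiring of the brain, included 6 tested genes. They were called in both directions, with Pcdh9 and Pcdh19 higher and Pcdh17 lower in GO2 cells. Their median difference was 0.12, and it turned to -0.08 with spike-in scaling.

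Promoter windows of 250 bases before to 50 bases after the start site were taken from RefSeq for GRCm38.p6, which held one for 22 of the 70 members. Cdh1 and Cdh3 were not among them. The windows of the called genes Cdh22, Pcdh17 and Pcdh19 are shown, as 2 genes that fell and 1 that rose in GO2 cells. Capitals mark a CCAAT box (CCAAT, or ATTGG on the other strand) and a GC box (GGGCGG or CCGCCC). The windows are chr2:165234688-165234987 on the minus strand for Cdh22, chr14:84443313-84443612 on the plus strand for Pcdh17 and chrX:133688944-133689243 on the minus strand for Pcdh19, each written 5′ to 3′ along the gene.
Cdh22: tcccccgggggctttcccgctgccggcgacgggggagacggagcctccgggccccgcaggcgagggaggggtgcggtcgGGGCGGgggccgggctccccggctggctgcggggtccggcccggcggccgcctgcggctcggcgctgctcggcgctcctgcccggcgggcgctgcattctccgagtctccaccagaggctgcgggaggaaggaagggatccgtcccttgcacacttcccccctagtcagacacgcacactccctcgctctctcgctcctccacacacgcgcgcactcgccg
Pcdh17: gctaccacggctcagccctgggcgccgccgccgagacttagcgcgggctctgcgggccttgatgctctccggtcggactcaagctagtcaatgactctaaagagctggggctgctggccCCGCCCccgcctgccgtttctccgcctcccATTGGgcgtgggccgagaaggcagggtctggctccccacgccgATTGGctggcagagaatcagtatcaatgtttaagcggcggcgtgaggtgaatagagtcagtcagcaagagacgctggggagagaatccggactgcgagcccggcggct
Pcdh19: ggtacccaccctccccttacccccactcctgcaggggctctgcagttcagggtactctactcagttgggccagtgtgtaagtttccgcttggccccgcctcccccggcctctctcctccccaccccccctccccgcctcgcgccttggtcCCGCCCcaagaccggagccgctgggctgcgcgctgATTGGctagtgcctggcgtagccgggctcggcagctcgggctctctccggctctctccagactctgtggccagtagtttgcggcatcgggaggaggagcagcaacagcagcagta

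All 3 windows were rich in CpG. The window of Cdh22 held 38 CpG dinucleotides at 76.3% GC, that of Pcdh17 held 26 at 65% GC, and that of Pcdh19 held 18 at 67.7% GC. The median of all 32851 windows was 7 CpG at 52.7% GC, and that of the windows of members was 14 at 60.3% GC. Among tested genes that were not called, Pcdh18 held 23 CpG, Cdh8 21, Pcdh7 11, Cdh12 9 and Cdh26 4. Each of the 3 windows shown held 1 GC box, a motif in 35.7% of all windows and 36% of the 25 windows of members. Pcdh17 held 2 CCAAT boxes, Pcdh19 held 1 and Cdh22 held 0, a motif in 37.4% of all windows and 68% of those of members. The called gene Pcdh9 had 2 windows, each with 1 CCAAT box and 0 GC boxes. The letters CACCTG, searched on both strands as the E-box read by Snail and Zeb factors, were in none of the 3, in 20.2% of all windows and in 20% of those of members. These matches describe the letters in the windows and nothing about binding.

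Pcdh17 is a protocadherin of the delta group. Its probe A_52_P111031 was at -1.55 and -1.47 in ID8G cells and at -5.14 and -5.17 in GO2 cells. Both ID8G arrays were well above background and neither GO2 array was. Pcdh17 was at least 4.91-fold lower in GO2 cells (adjusted p = 0.000182, limma), a p on which the filter bears as well.

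Pcdh19, a delta protocadherin encoded on the X chromosome and known from an inherited epilepsy, was measured by 2 probes. The probe A_52_P432969 was at 0.88 and 0.81 in ID8G cells and at 2.07 and 2.14 in GO2 cells. The probe A_65_P15456 was at -1.10 and -1.25 in ID8G cells and at 0.05 and 0.23 in GO2 cells. Both probes were high on both GO2 arrays, without overlap. Pcdh19 rose by 1.26 ± 0.06 (SE), or 2.39-fold (adjusted p = 0.000764, limma), at the first and by 1.31 ± 0.10, or 2.48-fold (adjusted p = 0.00214, limma), at the second.

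Pcdh9, a further delta protocadherin, was at -3.14 and -3.17 in ID8G cells and at -0.89 and -0.93 in GO2 cells at the probe A_66_P110809. The GO2 arrays were high and the ID8G arrays low but above background. Pcdh9 rose by 2.24 ± 0.05 (SE), or 4.74-fold (adjusted p = 0.000234, limma). Its other 2 probes were not well above background on any array, so the increase rests on 1 of 3 probes.

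The other non-clustered genes differed by less than 2-fold. Pcdh1, known from airway epithelium, was 0.36 lower in GO2 cells (adjusted p = 0.0125, limma), and Pcdh18 was 0.37 higher (adjusted p = 0.0277, limma), both without overlap. Pcdh7 differed by -0.13 at the probe A_51_P260740 and by 0.33 at A_55_P2810343, where the GO2 arrays were at -0.91 and -2.23 and overlapped the ID8G arrays. Its probes thus disagreed in sign, with an adjusted p of 0.154 and 0.618 in limma. Pcdh15 was well above background on single ID8G arrays at 2 probes and was not tested.

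**Figure D4:**
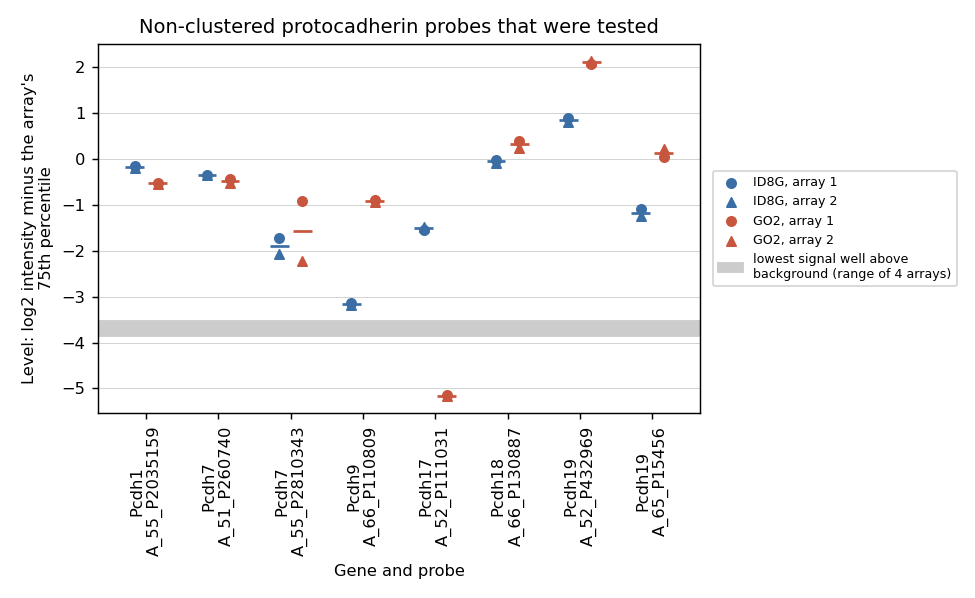
Level of each tested probe of a non-clustered protocadherin on the 4 arrays (log2 intensity relative to the 75th percentile), with circles for array 1 and triangles for array 2, short bars for the mean, and the grey band marking the lowest signal well above background. For Pcdh17 the GO2 points (red) lie below the band and the ID8G points (blue) above it. For Pcdh9 and both Pcdh19 probes the GO2 points lie above the ID8G points.

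The genes that act with cadherins inside the cell included 13 catenins and partners, of which 11 were tested, 0 were called higher and 1 lower in limma. Beside the counts of this list and those below, 6.44% of all tested symbols were called higher and 4.33% lower. At an unadjusted p below 0.05 there were 13 of their 24 probes. Ctnna1, which encodes alpha-catenin, differed by 0.07, Ctnnb1, which encodes beta-catenin, by 0.14 and 0.11, and Ctnnd1, which encodes p120-catenin, by -0.24 and -0.31. Vcl, which encodes vinculin, differed by -0.09. Jup, which encodes plakoglobin, was 0.36 and 0.84 lower at its 2 tested probes, under 2-fold (adjusted p = 0.0145 and 0.00231, limma). The called gene was Pard3, a polarity protein of epithelial junctions, which fell by 1.04 and 1.06 at 2 of its 5 tested probes (adjusted p = 0.00287 and 0.00841, limma) and was 0.77 to 0.83 lower at the other 3. The median over the list was -0.09.

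Other genes of the cadherin superfamily gave 12 tested of 24 on the array, with 1 called higher and 1 lower. Celsr1, a planar cell polarity cadherin, was at 3.69 and 3.89 in ID8G cells and at 2.68 and 2.82 in GO2 cells, and fell by 1.04 (adjusted p = 0.00405, limma). Cdhr1, a photoreceptor cadherin that passed the filter only through GO2 cells, was at least 1.84-fold higher there (adjusted p = 0.00664, limma), a bound under 2-fold for a gene that had to differ. Fat1, a giant cadherin, was 0.65 higher, and the desmosomal cadherin Dsg2 was 0.65 lower, both under 2-fold, and Cdhr2 differed by -0.13. Clstn3 was 0.99 lower, just under 2-fold (adjusted p = 0.00170, limma). The median over the list was -0.19, and 9 of its 14 tested probes had an unadjusted p below 0.05 in limma. A total of 11 genes of this list were not well above background on any array.

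The 14 listed regulators of the protocadherin clusters were all tested and 0 were called in limma, with 7 of their 23 probes at an unadjusted p below 0.05, all under 2-fold. Ctcf differed by 0.07, the cohesin subunits Smc1a, Smc3 and Rad21 by -0.07, -0.02 and -0.16 at their brightest probes, the corepressor Trim28 by 0.08, and the chromatin repressor Smchd1 by -0.05. Dnmt3b, a DNA methyltransferase, was 0.80 and 0.61 higher at its 2 tested probes, with a further probe not well above background. The other DNA methyltransferases of the list moved in both directions. Dnmt3a was 0.14 lower at its brighter probe and 0.63 lower at the other, and Dnmt1 was 0.32 higher. The median over the list was -0.05.

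Among 10 proteases on the array that cut cadherins or their stubs, 7 were tested. Mmp14, a membrane-anchored matrix metalloprotease, was at -2.64 and -2.73 in ID8G cells and at -0.14 and -0.18 in GO2 cells. It rose by 2.53 ± 0.06 (SE) (adjusted p = 0.000242, limma), and was the called gene of the list. Adam10, the main shedding enzyme of E- and N-cadherin, was 0.46 and 0.39 higher, under 2-fold. Adam17 differed the other way, by -0.34 and -0.60 (adjusted p = 0.0736 and 0.121, limma). The gamma-secretase subunits Psenen and Aph1a differed by -0.10 and 0.57 at their brightest probes.

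Transcription factors known to repress Cdh1 gave 8 tested genes of 9, with 2 called higher and 0 lower. Over all tested symbols 6.44% were called higher and 4.33% lower. Snai1 was at -1.17 and -0.99 in ID8G cells and at 0.50 and 0.45 in GO2 cells, and rose by 1.55 (adjusted p = 0.000876, limma). Twist2 was at -0.02 and 0.03 in ID8G cells and at 1.49 and 1.48 in GO2 cells, and rose by 1.48 (adjusted p = 0.000428, limma). In both genes the GO2 arrays were high without overlap. Snai2 was 0.75 higher and Zeb2 0.59 and 0.58 higher, whereas Zeb1 was 0.65 and 0.44 lower, all under 2-fold. Tcf3 differed by 0.24 and Tcf4 by -0.08 at their brightest probes. Twist1 was well above background in GO2 cells only, at least 1.78-fold higher, and was not called (adjusted p = 0.0503, limma). The difference in Cdh1 beside these was -0.34.

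**Figure D5:**
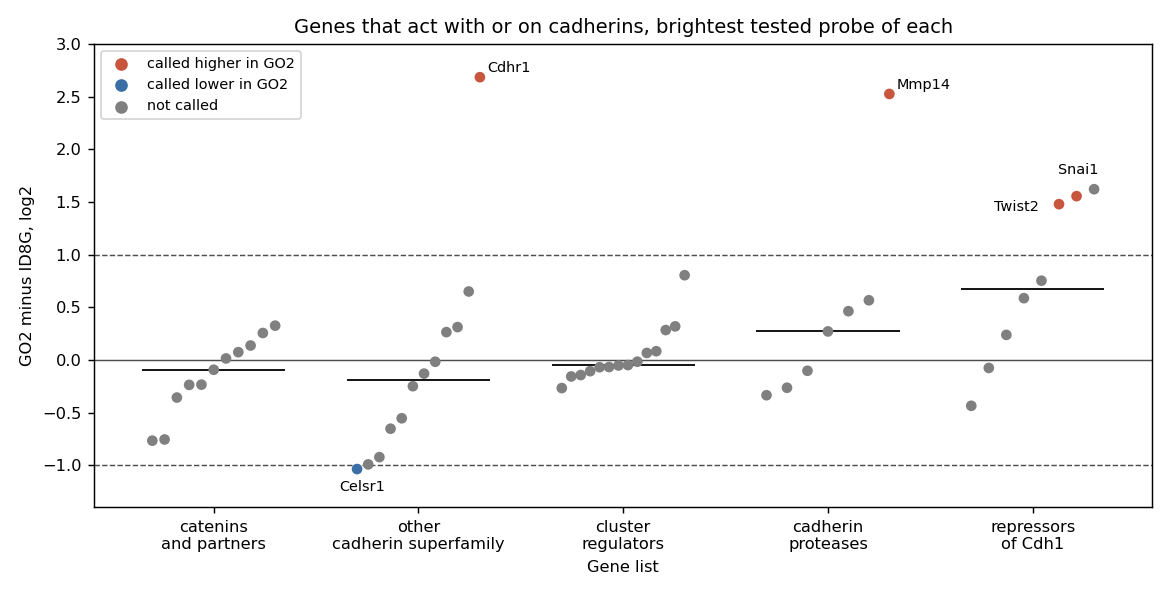
GO2 minus ID8G on the log2 scale for genes of 5 lists, 1 point per gene (its brightest tested probe, n = 2 arrays per line), with the median of each list as a black line and dashed lines at a 2-fold difference. Called genes are colored and named. Cdhr1, Twist1 (the highest grey point) and Cdhr3 (the grey point at -0.92) are drawn at their fitted values, which are no bounds. Pard3 is among the grey points, since its brightest probe was not one of the 2 called.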

How the data were processed

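RNA of ID8G and GO2 cells was hybridized to 4 arrays, 2 per line, designed on mm9 per the file headers. The authors deposited scanner files with background-corrected spot intensity from Feature Extraction 11.5.1.1, before any normalization between arrays, and with flags for outliers, saturation and signal well above background. They also deposited log2 values from GeneSpring, which equal log2 intensity scaled to each 75th percentile and then centered on the median of the probe. These were used for 1 alternative.

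Here the intensity of non-control probes was used without outlier spots, spots of a probe were averaged, and the level was log2 intensity relative to the 75th percentile of non-control probes on the array. The 28368 probes that both arrays of a line had well above background were fitted in R 4.3.3 by limma 3.58.1 on cell line alone, and p-values were adjusted over all of them. Calls needed an adjusted p below 0.05 and a difference of 2-fold or more. Lists use 1 value per gene, the brightest tested probe, for medians. A summed level adds the unlogged levels of the brightest probe of each gene, so it follows the brightest genes of a list. Genes were named by RefSeq accession (58.3% of probes) through a table for GRCm38.p6, used for names, gene order and promoter windows. No coordinates of probes are given. Probe sequences were not used here.

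Members and lists were chosen with earlier results of these data known. Named are all called members, Cdh1 and Cdh2, the 3 brightest tested genes of each class, and from each list the 3 brightest and the called genes. Other genes were chosen after their values were seen, as were the CCAAT and GC box motifs. The lists are type I, type II and other cadherins, catenins and partners, other cadherin superfamily genes, regulators of the protocadherin clusters, proteases, repressors of Cdh1, and markers of 6 cell types. No set test was run.

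The alternatives comprised spike-in scaling, quantile normalization, median centering, normexp background correction (offset 50), other filters and floors for dim probes, the methods' t-test, keeping outlier spots, the deposited log2 values, an intensity trend, a replicate block, other thresholds, 1 value per gene, and leaving out each array. Precision is limited by the number of arrays. The fit was tested on simulated data for this comparison. Of 28344 simulated probes, 100 were changed by 1.5 on the log2 scale and 100 by 3. It called 78 and 94 of these, and 1 unchanged probe. The noise was drawn as normal and independent, with the SDs of the data shuffled among probes, so it did not follow the signal. Neither the filter nor any spread beyond that between arrays was simulated. Figures were drawn with matplotlib 3.10.9 in python 3.11.15.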

Additional observations from a re-analysis of the deposited data

How the results depend on the processing

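The counts were 1 Cdh gene higher and 1 lower in GO2 cells, 4 clustered protocadherins higher, and 2 non-clustered ones higher and 1 lower. These counts, and the 9 genes behind them, were the same with quantile normalization, median centering, outlier spots kept, an intensity trend, the deposited log2 values and the replicate block. With normexp background correction 0 clustered genes were called higher, and 371 of all symbols lower. Without a filter on dim probes 2 Cdh genes were higher and 2 lower. With signal well above background required on all 4 arrays, 2 clustered genes were higher, 0 non-clustered ones lower, and 474 of all symbols higher. With a floor for dim values 2 clustered genes were higher. Without the 2-fold minimum 2 Cdh genes were higher and 3 lower, 7 clustered genes higher, 2 non-clustered genes lower, and 3007 and 2970 of all symbols higher and lower. After Benjamini-Hochberg adjustment the methods' t-test gave 0 members in each of these counts, and 0 and 3 of all symbols.

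Leaving out 1 array in turn leaves a line with 1 array, which is assumed to vary like the other line. All 9 called genes remained. The count of Cdh genes ranged from 1 to 2 higher (Cdh13 was added without the first GO2 array) and from 1 to 3 lower (Cdh6 and Cdh24 were added without the first ID8G array), and that of non-clustered genes from 1 to 2 lower (Pcdh15 was added without the first ID8G array). Single genes were added to the clustered ones without the first GO2 array (Pcdha9), the second GO2 array (Pcdha12) or the second ID8G array (Pcdhb17).

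The median difference of the tested Cdh genes (-0.08) was -0.28 with spike-in scaling and -0.23 to -0.078 with an array left out. That of the clustered genes (0.91) was 0.60 with normexp, 0.71 with spike-in scaling, 0.51 without a filter, 0.68 with the filter on all 4 arrays, with the floor and with bounds, and 0.77 to 1.07 with an array left out. That of the non-clustered genes (0.12) was -0.084 with spike-in scaling, -0.053 without a filter, 0.37 with the filter on all 4 arrays, and -0.13 to 0.18 with an array left out. Spike-in scaling moved the median of all tested probes from -0.02 to -0.23, and Pcdhb22 to 0.92. Of 396 values of single probes under an alternative, 376 kept their side of the threshold (9 of them, of Cdh12, Pcdha8 and Pcdha9, never called, with a change of sign), 18 were no longer called, 2 became called and 0 called values reversed. Apart from the filters, the floor and the thresholds, where the construction changes which genes can pass, the cause was not tested.

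Deviations of same-numbered arrays correlated at 0.03. That 1 correlation cannot tell whether such arrays were prepared together, which the sources used here do not give. With the replicate block 836 symbols were higher and 563 lower, and the medians were -0.08, 0.91 and 0.12. Names from a gene name column were not run because the scanner files used here hold none, and the slide could not serve as a block because all arrays were on 1 slide. Signal over background limits the 46 genes that were not tested.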

Other observations

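Other markers of the surface epithelium moved in both directions. Krt19, a keratin of simple epithelia, was at 7.40 and 7.37 in ID8G cells and at 5.72 and 5.75 in GO2 cells, and fell by 1.65 on the log2 scale (adjusted p = 0.000340, limma). Upk3b, a mesothelial surface protein, was at 1.47 and 1.51 in ID8G cells and at 2.55 and 2.59 in GO2 cells, and rose by 1.08 (adjusted p = 0.000787, limma). Msln, which encodes mesothelin, was 0.82 lower, under 2-fold. The endothelial marker Robo4 was at -1.53 and -1.28 in ID8G cells and at -3.99 and -4.57 in GO2 cells, Esam was 0.68 lower and Pecam1 differed by 0.08. Of 8 leukocyte and macrophage markers, 4 were tested and 0 were called in limma (Itgam -0.13, Cd3e 0.18 and Csf1r 0.22 at their brightest probes), with 2 of their 6 probes at an unadjusted p below 0.05.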
